A study of Mus musculus with 12 samples.

Results

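The genes described here are 56 mouse genes of mitosis and chromosome segregation, chosen by symbol and drawn from a table of 55228 genes. They comprise 10 genes of the mitotic cyclins, kinases and their transcription, 4 of the chromosomal passenger complex, 9 of the spindle checkpoint and anaphase, 8 of the centromere and kinetochore, 15 of the kinesins and spindle, 7 of condensin and chromosome structure and 3 of cytokinesis. All 56 were found in the table, all are annotated as protein coding, and all passed the filter of a mean of at least 1 TPM (transcript abundance corrected for transcript length and library total) that set which 15043 genes were tested.

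RNA was sequenced from cultured regulatory T cells (Tregs) in 12 libraries, 3 in each of 4 groups. The Tregs came from NOD.Foxp3-GFP mice, a diabetes-prone strain with a green reporter of Foxp3, the transcription factor that defines the lineage. Lymph node cells of 16 mice were pooled and divided before the Foxp3.GFP+CD25+ cells were sorted on 3 machines and activated apart, so the replicate number marks a shared sort and no replicate is an animal. On day 2 after activation each part was transduced with a retroviral vector that carries a Thy1.1 reporter. In EV no IL-2 the vector was empty and IL-2 was washed out on day 4. In EV+IL-2 the vector was also empty and the cells stayed in medium with IL-2. In 1G12t and 3A10t the vector encoded an orthogonal IL-2 variant, 1G12 or 3A10, joined by a CD25-derived linker to a matching IL-2 receptor β chain, and IL-2 was washed out as in EV no IL-2. All 4 groups were sorted for Thy1.1 on day 9, after 5 further days. The comparisons therefore ask how mitotic transcripts stood with soluble IL-2, with either tethered cytokine and with neither.

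Mitosis is run by cyclin-dependent kinase 1 with cyclins A and B, which condenses chromosomes, breaks down the nuclear envelope and builds the spindle. Kinetochores tie chromosomes to spindle microtubules, a checkpoint delays anaphase until all are attached, and the anaphase-promoting complex (APC/C) then destroys cyclin B and securin so that sister chromatids part. Most genes of this machinery are transcribed late in the cell cycle, when the MuvB core joins B-Myb and FoxM1, and are repressed in resting cells, when MuvB is part of the DREAM complex, and IL-2 is a growth factor that drives activated T cells into the cycle.

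Promoters of such genes often hold a cell cycle genes homology region, which MuvB complexes bind, and CCAAT boxes, which NF-Y binds. RefSeq windows of 300 bases (250 before and 50 after the annotated start, GRCm38.p6, the reference strain and not NOD) were available for 48 of the 56 genes. The homology region was searched as TTTGAA or TTCGAA and the CCAAT box as CCAAT, on both strands. The 4 genes with both motifs and the highest ratio of EV+IL-2 to EV no IL-2 on the log2 scale are shown, as the 250 bases before the start read on the gene's strand. Capitals mark each match to either motif, and CCAAT matches on opposite strands that share bases run together. Ccnb2 lies at chr9:70421555-70421804 on the minus strand, Ube2c at chr2:164769679-164769928 on the plus strand, Cdk1 at chr10:69352913-69353162 on the minus strand and Top2a at chr11:99024190-99024439 on the minus strand.

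Ccnb2: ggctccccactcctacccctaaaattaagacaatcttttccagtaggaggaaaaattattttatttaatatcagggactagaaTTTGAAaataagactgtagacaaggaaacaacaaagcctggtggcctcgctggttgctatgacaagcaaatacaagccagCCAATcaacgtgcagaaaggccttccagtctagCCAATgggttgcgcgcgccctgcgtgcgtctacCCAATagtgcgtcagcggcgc
Ube2c: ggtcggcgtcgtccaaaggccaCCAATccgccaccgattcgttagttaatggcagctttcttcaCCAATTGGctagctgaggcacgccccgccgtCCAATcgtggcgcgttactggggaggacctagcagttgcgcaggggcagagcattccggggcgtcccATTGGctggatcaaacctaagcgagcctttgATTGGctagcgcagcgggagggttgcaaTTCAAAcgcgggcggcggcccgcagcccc
Cdk1: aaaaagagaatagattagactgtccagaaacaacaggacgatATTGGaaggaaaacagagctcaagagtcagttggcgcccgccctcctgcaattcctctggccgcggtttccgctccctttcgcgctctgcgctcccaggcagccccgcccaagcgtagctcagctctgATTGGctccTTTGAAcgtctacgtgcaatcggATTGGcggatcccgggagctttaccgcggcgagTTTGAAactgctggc
Top2a: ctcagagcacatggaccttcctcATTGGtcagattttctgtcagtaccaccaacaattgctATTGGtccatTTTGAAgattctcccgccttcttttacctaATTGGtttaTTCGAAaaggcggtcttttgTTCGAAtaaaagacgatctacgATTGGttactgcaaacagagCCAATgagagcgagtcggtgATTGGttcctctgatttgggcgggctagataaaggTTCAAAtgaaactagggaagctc

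In these 4 promoters a homology region stood close to the start and CCAAT boxes stood upstream of it. In Cdk1 the nearest homology region began 15 bases before the start, in Top2a 23 bases and in Ube2c 29 bases, while in Ccnb2 it began 4 bases after the start, beyond the bases shown, and another stood 167 bases upstream. CCAAT boxes numbered 3 in Ccnb2, 3 in Cdk1, 6 in Ube2c and 6 in Top2a. Of the 48 windows, 37 (77.1%) held a homology region, against 21.7% of 27025 genes with a window, and 36 (75.0%) held a CCAAT box, against 41.1%. Both motifs occurred in 32 windows (66.7%), against 8.61% of all genes and 31.9% of the other pathway genes described further on. A homology region began within 50 bases of the start in 33 of the 48 genes (68.8%) and in 5.29% of all genes. The first share took any window of a gene, as 4 of the 48 had more than 1. The share of all genes took only the first window of each. An E2F site, searched as TTTGGCG or TTTCGCG, was found in Cdca8, Cdk1, Cks1b, Kif15, Melk and Ncapd2, which is 12.5% of the windows against 2.68% of all genes. In Cdca8 alone a homology region shared bases with another motif. Birc5, Mad2l1, Melk, Ncaph, Nuf2, Nusap1 and Pttg1 held neither a homology region nor a CCAAT box in the window. These matches describe the reference sequence and no test was run on them.

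**Figure D1:**
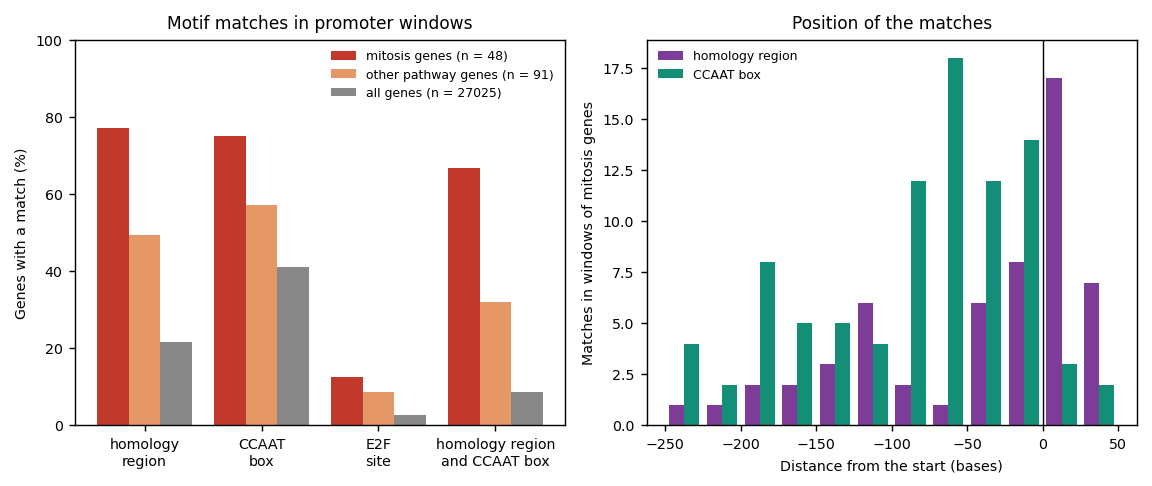
Left, share of genes (%) whose 300-base promoter window holds each motif, for the mitosis genes, the other pathway genes and all genes with a window. Right, number of matches in the windows of the mitosis genes by distance from the start in bases. Both motifs occurred together in 66.7% of mitosis genes and 8.61% of all genes, and homology regions gathered next to the start.

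Levels are given as TPM divided by a median-of-ratios factor per library, which ran from 0.846 to 1.08. TPM are per transcript length, so levels of different genes can be set side by side, but they keep no read depth. Foxp3 was at 373 TPM or above in every library. Markers of other lymphocytes were detected at low levels. B cell markers summed to between 8.42 and 16.2 TPM, mostly Cd79b (6.82 to 13.4 TPM), with Ms4a1 at most 0.675 TPM. CD8 T cell markers summed to between 3.48 and 6.57 TPM, mostly Cd8b1 (3.14 to 5.79 TPM), with Cd8a at most 0.780 TPM. Among myeloid markers Lyz2 was at most 0.485 TPM, while Cst3 was between 444 and 770 TPM in every library. S100a8, S100a9 and Csf1r were at most 0.878, 0.974 and 1.75 TPM, each highest in a 1G12t library. Il2 transcripts, which the tethered constructs carry, were between 13.1 and 30.0 TPM in the 6 libraries of 1G12t and 3A10t and at most 0.496 TPM in the other 6. Library 3 of 1G12t and library 1 of 3A10t recur below, where values differed in them or changed without them.

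With soluble IL-2 almost all of the 56 genes were more abundant. In EV+IL-2 against EV no IL-2, 54 of the 56 genes (96.4%) rose, Smc4 fell and Bub3 was not called, whereas 8.17% of the 15043 genes tested rose and 5.14% fell (limma, adjusted p under 0.05). The median log2 fold change (log2FC, with its standard error, SE, where given) was 2.03 over the 56 genes and −0.01 over all genes tested. For the 54 genes that rose, all 3 libraries of EV+IL-2 lay above the other 9 libraries, a share not computed for all genes. Against EV no IL-2 alone, EV+IL-2 lay wholly above for 54 of the 56 genes (96.4%) and wholly below for 1. In that comparison 19.6% of genes tested lay wholly above and 20.0% wholly below. The ratio of mean TPM had a median of 6.08, was over 10 for 13 genes and over 5 for 32, and was under 2 for Cks2, Incenp, Bub3, Cenpa and Smc4. In bulk RNA a larger share of cells in mitosis and more RNA per mitotic cell cannot be told apart. Of the 56 genes, 4 (Bub1, Ttk, Kif4 and Anln) had a mean under 1 TPM outside EV+IL-2 and so passed the filter through that group. With the filter set on the 9 other libraries instead, 50 of 52 genes rose, against 7.37% of 15687 genes.

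**Figure D2:**
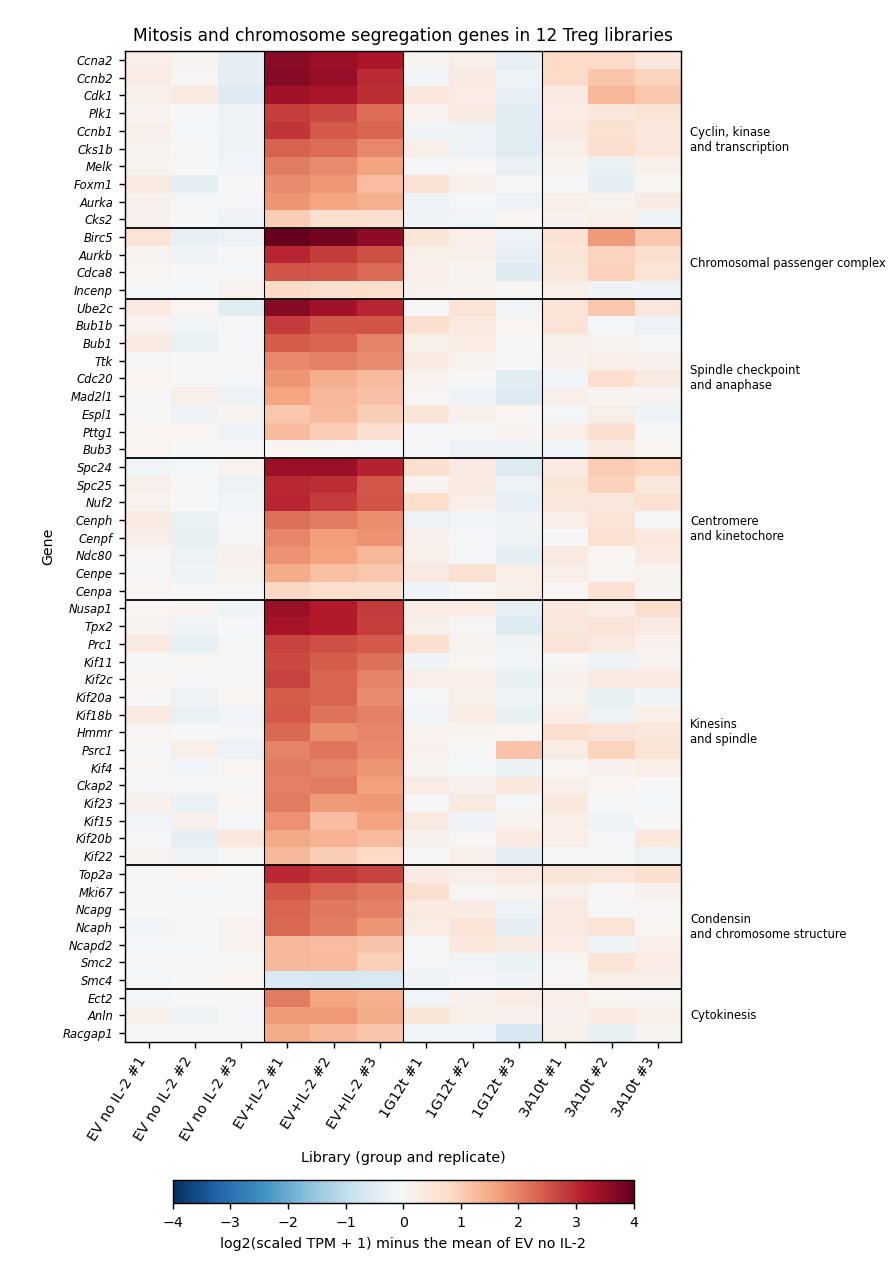
Log2(scaled TPM + 1) of each of the 56 genes in each of the 12 libraries, minus the mean of the 3 EV no IL-2 libraries, with genes grouped by role and ordered within a role by the difference of EV+IL-2. The 3 EV+IL-2 columns are red for 54 genes, pale for Bub3 and blue for Smc4, while the 1G12t and 3A10t columns are pale for most genes.

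The 10 genes of cyclins, kinases and transcription all rose in EV+IL-2, with a median log2 fold change of 2.35. Cdk1, the mitotic kinase (chr10:69335146-69352938), was at 6.23, 7.04 and 3.34 TPM in EV no IL-2 and at 63.5, 60.2 and 48.1 TPM in EV+IL-2. Ccna2 (chr3:36564865-36572150), which encodes cyclin A2, was at 2.87, 2.49 and 1.45 TPM in EV no IL-2 and at 38.3, 33.7 and 29.8 TPM in EV+IL-2. These levels did not overlap, and the log2FC was 3.20 (SE 0.30, adjusted p = 4.9e-05) for Cdk1 and 3.44 (SE 0.20, adjusted p = 3.5e-06) for Ccna2 (limma). The cyclin B genes behaved alike in direction: Ccnb1 had a log2 fold change of 2.54 and Ccnb2 of 3.37. The CDK subunit genes stood apart in level. Cks2 was the most abundant of the 10, at 42.3 ± 4.60 TPM (SD, n = 3) in EV no IL-2, and changed least, to 73.1 ± 10.5 TPM in EV+IL-2 (log2FC 0.77, adjusted p = 0.0033, limma). Its paralogue Cks1b went from 18.2 ± 1.89 to 85.4 ± 13.0 TPM (log2FC 2.17). The polo and Aurora A kinases Plk1 and Aurka, the kinase gene Melk and the late cell cycle transcription factor Foxm1 rose by 1.60 (Aurka) to 2.54 (Plk1) on the log2 scale.

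The chromosomal passenger complex, in which Aurora B kinase is placed by INCENP, survivin and borealin, rose in all 4 genes but unequally. Birc5 (survivin, chr11:117849251-117855743) was at 7.55, 3.89 and 4.08 TPM in EV no IL-2 and at 92.8, 83.4 and 70.0 TPM in EV+IL-2. That was the largest ratio of mean TPM among the 56 genes, 15.9, with a log2FC of 3.79 (SE 0.30, adjusted p = 1.7e-05, limma). Incenp, the scaffold, was at 22.5, 21.7 and 25.4 TPM in EV no IL-2 and at 41.0, 36.8 and 38.0 TPM in EV+IL-2. It was thus well above the other subunits without IL-2 and rose least (log2FC 0.71, adjusted p = 0.0019, limma). Aurkb (2.79) and Cdca8 (2.41, which encodes borealin) lay between them on the log2 fold scale.

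Of the 9 spindle checkpoint and anaphase genes 8 rose. Ube2c, the ubiquitin-conjugating enzyme of the APC/C, was at 6.21, 4.83 and 2.93 TPM in EV no IL-2 and at 67.8, 55.2 and 44.3 TPM in EV+IL-2 (log2FC 3.35, SE 0.27, adjusted p = 1.7e-05, limma). Pttg1 (securin, the inhibitor of separase) already stood at 29.8 ± 2.55 TPM without IL-2 and reached 60.5 ± 12.9 TPM with it (log2FC 0.98, adjusted p = 0.0039, limma). The checkpoint genes Bub1, Bub1b, Mad2l1 and Ttk, the APC/C activator Cdc20 and the separase gene Espl1 rose by 1.11 (Espl1) to 2.61 (Bub1b) on the log2 scale. Bub3 (chr7:131560222-131571895), which brings Bub1 and BubR1 to kinetochores, was at 197, 185 and 178 TPM in EV no IL-2 and at 196, 191 and 179 TPM in EV+IL-2. The groups overlapped fully (log2FC 0.01, 95% interval −0.22 to 0.24, adjusted p = 0.98, limma), and the sign of this small difference turned with the scaling.

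All 8 centromere and kinetochore genes rose, with a median log2 fold change of 1.93. Spc24, a subunit of the NDC80 complex that grips microtubules, was at 2.93, 3.17 and 3.75 TPM in EV no IL-2 and at 45.0, 45.9 and 35.3 TPM in EV+IL-2 (log2FC 3.33, SE 0.27, adjusted p = 1.9e-05, limma). Its partners in that complex rose with it, Spc25 by 2.82, Nuf2 by 2.79 and Ndc80 by 1.58 on the log2 scale. Cenpa, the histone H3 variant that marks centromeres, was the most abundant of the class and changed least, from 31.9 ± 1.62 to 53.4 ± 3.95 TPM (log2FC 0.72, adjusted p = 0.0067, limma). Cenpe, Cenpf and Cenph rose by 1.26, 1.80 and 2.05 on the log2 scale.

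The 15 genes of kinesins and spindle all rose, by 1.03 to 3.13 on the log2 scale. Nusap1, which bundles spindle microtubules, was at 1.52, 1.54 and 1.11 TPM in EV no IL-2 and at 25.0, 20.2 and 15.5 TPM in EV+IL-2 (log2FC 3.13, adjusted p = 7.9e-06, limma). The spindle assembly factor Tpx2 (3.07) and the midzone bundler Prc1 (2.58) followed on the log2 fold scale. Psrc1, a microtubule-associated gene, was at 11.2, 13.0 and 9.06 TPM in EV no IL-2 and at 46.4, 52.1 and 44.6 TPM in EV+IL-2 (log2FC 2.02, adjusted p = 5.1e-04, limma). Kif22, a chromokinesin, had the highest mean of the kinesins without IL-2, 20.0 ± 2.20 TPM, and the smallest change, to 42.3 ± 7.83 TPM (log2FC 1.03, adjusted p = 0.0019, limma). Among the other kinesins the mitotic motor gene Kif11 rose by 2.43 and Kif20b by 1.38 on the log2 scale.

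Condensin and its partners were the class in which genes moved in opposite directions. Smc2 and Smc4 form the core heterodimer shared by both condensin complexes. Smc2 (chr4:52439243-52488260) was at 19.1, 19.3 and 18.6 TPM in EV no IL-2 and at 48.2, 46.8 and 37.7 TPM in EV+IL-2 (log2FC 1.17, SE 0.13, adjusted p = 1.7e-04, limma). Smc4 (chr3:69004738-69034623) was at 706, 762 and 784 TPM in EV no IL-2 and at 487, 481 and 488 TPM in EV+IL-2 (log2FC −0.63, SE 0.07, adjusted p = 2.3e-04, limma). The Smc4 libraries with IL-2 thus lay below all others, while Smc2, Ncapd2, Ncapg and Ncaph lay above all others. The ratio of mean TPM of Smc4 to Smc2 was 11.0 in EV+IL-2, against 39.5 in EV no IL-2, 35.8 in 3A10t and 40.1 in 1G12t. Smc4 also hosts the microRNA genes Mir15b and Mir16-2 on its own strand, and reads of the host and of the microRNA precursors cannot be told apart in these files. Smc4 and Bub3 together made up between 67.8% and 73.1% of the summed TPM of the 56 genes in the libraries outside EV+IL-2 and between 28.5% and 34.2% in EV+IL-2. Their abundance therefore sets any plain sum. Summed over the other 54 genes, a sum chosen after the values were seen, levels were 372 ± 22.8 TPM in EV no IL-2, 469 ± 42.5 TPM in 3A10t, 380 ± 23.8 TPM in 1G12t and 1496 ± 214 TPM in EV+IL-2 (SD, n = 3).

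**Figure D3:**
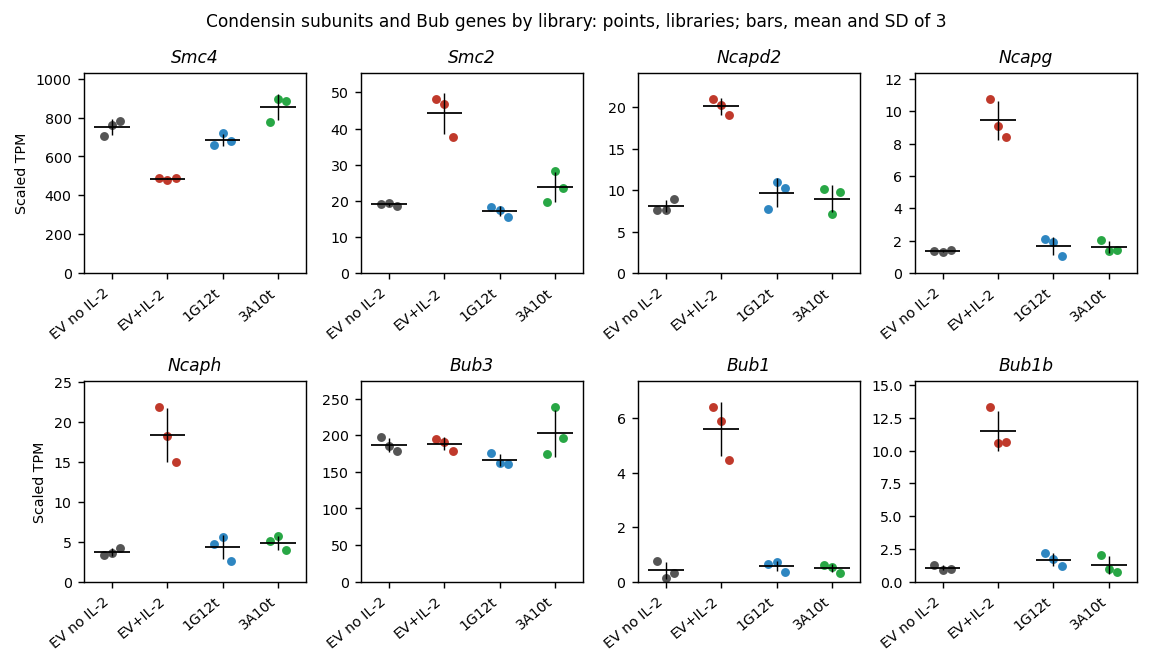
Scaled TPM per library of 5 condensin subunit genes and 3 Bub genes, with points for libraries and bars for the mean and SD of 3. Smc4 is lowest in EV+IL-2 and Bub3 overlaps between EV groups, while the 6 other genes are highest in EV+IL-2.

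Top2a, the topoisomerase that untangles sister chromatids (chr11:98992943-99024189), was at 7.32, 8.04 and 7.61 TPM in EV no IL-2 and at 69.5, 60.0 and 55.2 TPM in EV+IL-2 (log2FC 2.85, SE 0.10, adjusted p = 1.8e-07, limma). Mki67, which encodes the proliferation marker Ki-67, rose by 2.28 on the log2 scale. The 3 cytokinesis genes rose as well. Racgap1, part of the centralspindlin complex, went from 20.1 ± 0.242 to 51.2 ± 6.65 TPM (ratio of means 2.55, adjusted p = 6.0e-04, limma). Ect2, the exchange factor that activates RhoA at the cleavage furrow, went from 1.70 ± 0.0842 to 7.87 ± 2.16 TPM (1.69 on the log2 scale), and Anln, which encodes anillin, from 0.623 ± 0.240 to 4.01 ± 0.459 TPM (1.63).

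The same EV+IL-2 libraries stood high or low for most of the 56 genes. Library 1 was the highest of its group for 49 genes and library 3 the lowest for 48, and the 54-gene sum was 1709 TPM in library 1, 1497 TPM in library 2 and 1281 TPM in library 3. Within each sort the rise was nevertheless present, with a median difference from the EV no IL-2 library of the same sort of 2.07, 2.09 and 1.82 on the log2 scale and 54, 55 and 55 genes higher. The median SD within EV+IL-2 was 0.21 on the log2 scale for the 56 genes and 0.11 for all genes tested. It was 0.26 against 0.15 in 1G12t, 0.14 against 0.12 in EV no IL-2 and 0.21 against 0.22 in 3A10t.

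RNA of another lineage moved with this group. Erythroid markers summed to between 2.05 and 4.43 TPM in the libraries outside EV+IL-2 and to between 25.0 and 39.4 TPM in EV+IL-2. Hba-a1 and Hba-a2, the only erythroid markers tested, were higher there by 3.52 and 3.13 on the log2 scale. Hba-a2 had means of 0.528, 0.223 and 0.176 TPM in EV no IL-2, 1G12t and 3A10t. It thus passed the filter through EV+IL-2. Hba-a1 had means of 0.668, 0.968 and 1.49 TPM in the same 3 groups. Of the markers below the filter, Klf1 was at most 0.285 TPM and Alas2 at most 0.224 TPM in EV+IL-2, and Hbb-bt reached 1.96 TPM. The number of genes listed above 0 was also lower in EV+IL-2, between 30393 and 36239, against 37930 to 43285 in the other 9 libraries. The part of these cells or transcripts, and of the number of genes listed, in the mitotic genes' rise was not tested.

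Other genes of the pathway were counted from 4 lists with 116 genes, of which 113 were tested. In EV+IL-2 against EV no IL-2, 61 of them (54.0%) rose and none fell, against 8.17% and 5.14% of all genes tested, with a median log2 fold change of 0.65. The rise was unevenly spread over the lists. Of 73 further spindle, kinetochore and cytokinesis genes 57 rose (78.1%), among them Pbk, a mitotic kinase gene, by 3.10 and Stmn1, a microtubule destabilizer, by 2.95 on the log2 scale, and at the low end Cenpl by 0.49 and Hjurp, the CENP-A chaperone, by 0.48. None of 15 subunits of the APC/C was called, beside the 8.17% of all genes that rose and the 5.14% that fell. An unadjusted p under 0.05 was found for 1 subunit (limma). The APC/C substrates Ccnb1 and Pttg1 and its cofactors Cdc20 and Ube2c rose. Of 13 cohesin genes 1 rose, Esco2, the acetyltransferase of S phase cohesion (log2FC 2.40), a share of 7.69% beside the 8.17% of all genes. Esco2 and 10 genes of the spindle list had a mean under 1 TPM outside EV+IL-2 and so passed the filter through that group. With the filter set on the 9 other libraries, 50 of 102 genes rose, and none of the 12 cohesin genes left did. Of 12 genes of MuvB, DREAM and B-Myb, which regulate the late cell cycle genes, 3 rose: Mybl2, which encodes B-Myb, by 1.52, Tfdp1 by 1.11 and Rbl1, which encodes p107, by 0.40 on the log2 scale.

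The 3A10t Tregs, cultured without added IL-2, differed far less from EV no IL-2 and the differences of the 56 genes were mostly small and positive. Of the 56 genes 1 was called higher, Top2a (1.79%, against 0.452% of genes tested), and none was called lower, against 1.60% (limma). The median log2 fold change was 0.24 over the 56 genes and 0.03 over all genes tested, with 51 of 56 above 0, and 18 genes had an unadjusted p under 0.05. All 3 libraries of 3A10t lay above all 3 of EV no IL-2 for 22 genes (39.3%, against 13.3% of genes tested) and below for none, against 12.1%. At the study's own threshold, an unadjusted p under 0.01 with a log2 fold change beyond 0.25, 7 genes were higher (Ccna2, Ccnb2, Aurkb, Birc5, Cdca8, Hmmr and Top2a), which is 12.5% against 2.83%, and none was lower, against 6.67%. The study set this threshold on DESeq2 results, whereas here and below it was set on the limma results. With TPM as deposited the median of all genes moved from 0.03 to −0.09 and that of the 56 genes from 0.24 to 0.15, so that 43 genes stayed above 0 and 51 lay above the median of all genes. Under quantile normalization 43 lay above 0 and 41 above the median of all genes, where 49 did with the scaling used here. The 10 most abundant genes held between 10.8% and 13.5% of TPM in the 3A10t libraries and 8.85% to 9.92% in the other 9, and library 2 of 3A10t, with the largest of these shares, also had the highest 54-gene sum outside EV+IL-2, 518 TPM. The part of this share in the result was not tested.

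**Figure D4:**
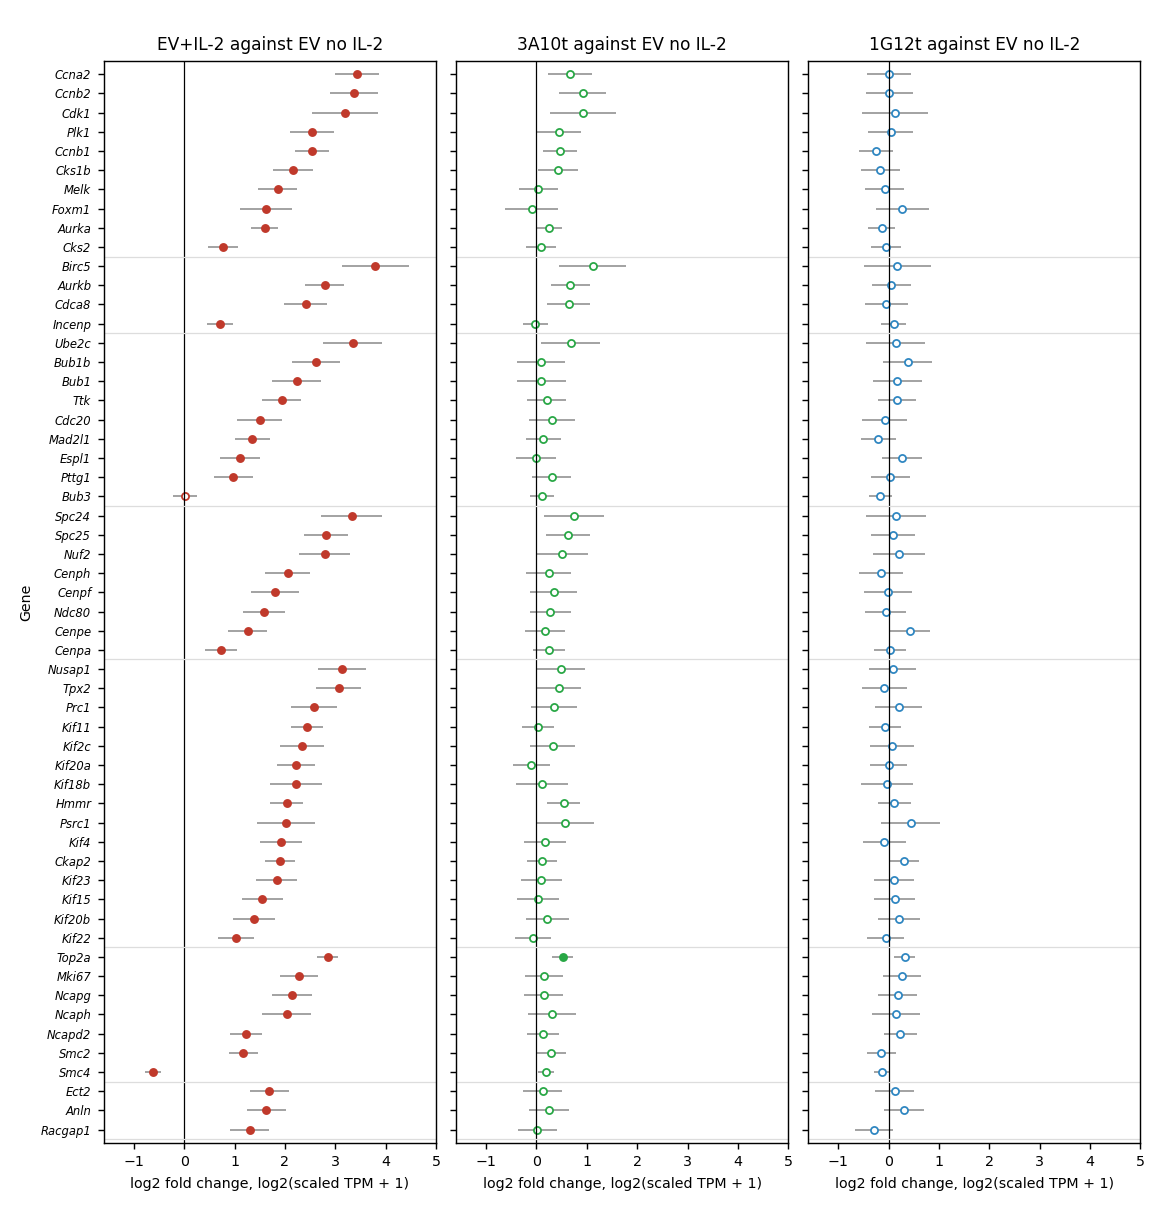
Log2 fold change on the log2(scaled TPM + 1) scale with 95% interval (limma) for each gene in EV+IL-2, 3A10t and 1G12t against the same EV no IL-2 libraries. Filled points passed an adjusted p of 0.05, which holds for 55 genes in EV+IL-2, Top2a in 3A10t and no gene in 1G12t.

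Top2a in 3A10t was at 11.0, 10.8 and 12.4 TPM, above the 7.32 to 8.04 TPM of EV no IL-2 in every library and above the 9.33 to 10.2 TPM of 1G12t (log2FC 0.52 against EV no IL-2, SE 0.10, adjusted p = 0.033, limma). The size of this change was small beside that with soluble IL-2. Birc5 was at 7.90, 18.3 and 11.6 TPM in 3A10t, each above the 3.89 to 7.55 TPM of EV no IL-2 and none near EV+IL-2 (log2FC 1.12, 95% interval 0.45 to 1.78, adjusted p = 0.075). Cdk1 was at 7.07, 14.8 and 12.5 TPM, with library 1 barely above the highest EV no IL-2 library at 7.04 TPM (log2FC 0.92, adjusted p = 0.11). Psrc1 was at 13.5, 21.3 and 16.1 TPM, above the highest EV no IL-2 library at 13.0 TPM (log2FC 0.57, adjusted p = 0.20). Spc24 (0.74, adjusted p = 0.13) and Ube2c (0.68, adjusted p = 0.15) likewise had no overlap with EV no IL-2 and did not pass the threshold over all genes, and Anln was at 0.24 on the log2 scale (adjusted p = 0.39, all limma).

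The count in 3A10t changed when a library was left out, and so did the share of all genes called. With the sort as a block 4 genes were called higher (Ccna2, Ccnb2, Spc25 and Top2a), when 0.605% of all genes were called higher and 2.07% lower. Without library 1 of 3A10t 9 were called (Cdk1, Ccnb2, Aurkb, Birc5, Cdca8, Spc24, Smc2, Smc4 and Top2a), when 7.91% of all genes were called higher and 15.3% lower. None was called without library 2 or library 3 of 3A10t, when 0.114% and 0.1% of all genes were called higher. With all libraries that share was 0.452%. The Top2a call was also lost without any 1 of the 3 EV no IL-2 libraries, without library 2 of EV+IL-2 and without library 1 or 2 of 1G12t. In those fits between 0.0466% and 0.262% of all genes were called higher, again fewer than with all libraries. Within sorts the median difference from EV no IL-2 was 0.20, 0.38 and 0.22 on the log2 scale, with 45, 47 and 46 of the 56 genes higher.

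**Figure D5:**
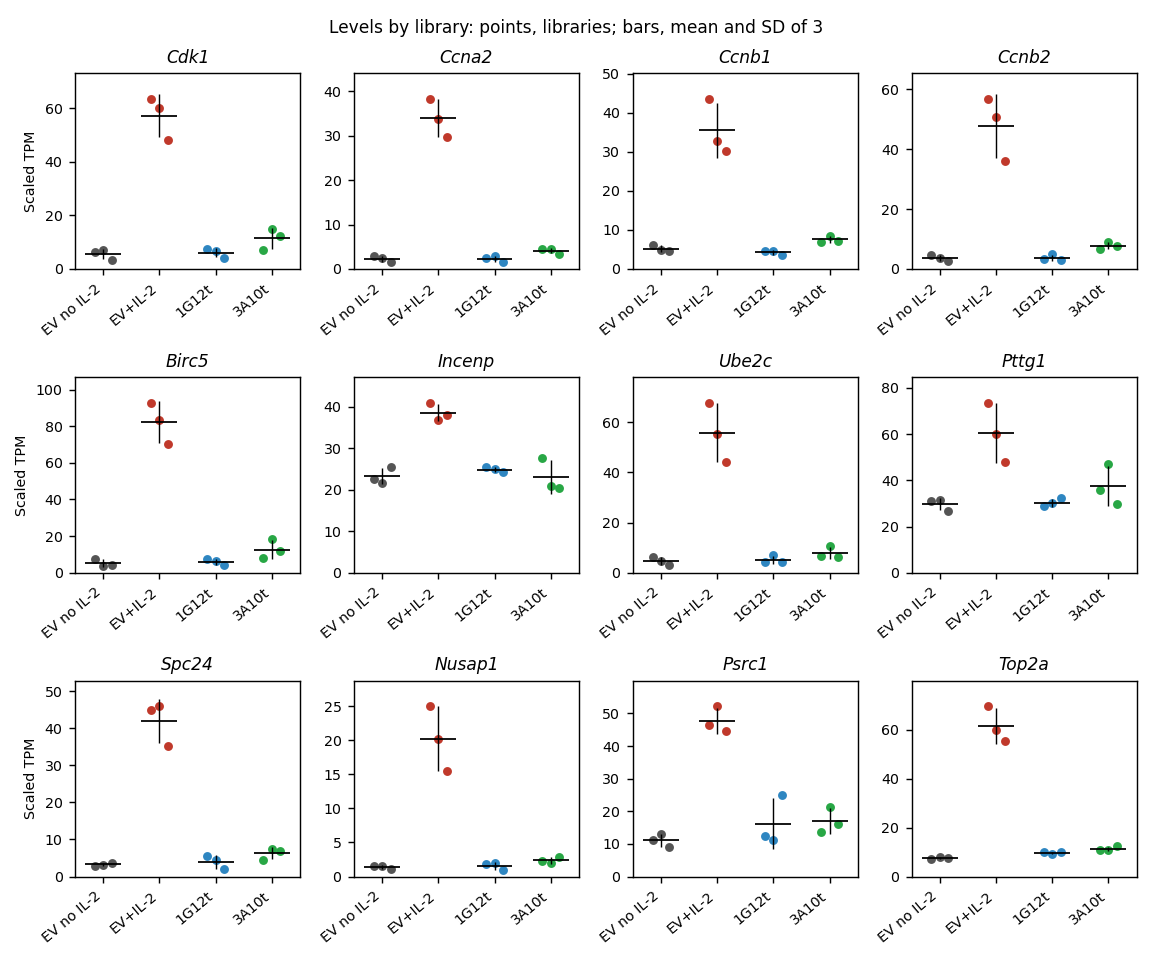
Scaled TPM per library of 12 of the 56 genes in the 4 groups, with points for libraries and bars for the mean and SD of 3. EV+IL-2 lies apart for every gene drawn, and in 3A10t the levels of Cdk1, Birc5, Ccnb2 and Top2a lie just above EV no IL-2.

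In 1G12t none of the 56 genes was called against EV no IL-2, where 0.0133% of genes tested were called higher and 0.00665% lower (limma). An unadjusted p under 0.05 was found for 3 genes, Top2a, Cenpe and Ckap2, and the study's threshold took in Top2a, 1.79% of the genes against 1.13%, with none lower, against 0.226%. All 1G12t libraries lay above all EV no IL-2 libraries for 5 genes (8.93%, against 8.68% of genes tested) and below for 3, where 7.80% of genes tested lay below. Top2a was at 9.87, 9.33 and 10.2 TPM, above all EV no IL-2 libraries (log2FC 0.32, 95% interval 0.11 to 0.53, adjusted p = 0.68). The median over the 56 genes was 0.07, with 35 above 0, and it turned to −0.08 under quantile normalization. Library 3 of 1G12t was the lowest of its group for 42 genes and held Racgap1 at 12.4 TPM against 18.6 and 18.4 TPM in the other two, yet it held Psrc1 at 25.1 TPM against 12.4 and 11.1 TPM. Without that library the median was 0.14, and without library 1 or library 2 of 1G12t it was −0.0051 or −0.027. Within sorts the median difference from EV no IL-2 was 0.06, 0.19 and −0.09 on the log2 scale, with 32, 44 and 20 of the 56 genes higher. For Birc5 the log2 fold change was 0.17 (95% interval −0.49 to 0.84) and for Cdk1 0.13 (−0.52 to 0.79), intervals that do not reach the changes seen with soluble IL-2.

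Set against each other, the tethered constructs differed for the cyclin B genes. In 3A10t against 1G12t 3 of the 56 genes (5.36%) rose, where 1.3% of genes tested rose and 2.96% fell (limma). Ccnb1 was at 6.91, 8.55 and 7.24 TPM in 3A10t and at 4.55, 4.62 and 3.56 TPM in 1G12t (log2FC 0.71, SE 0.15, adjusted p = 0.039). Ccnb2 was at 6.83, 8.93 and 7.67 TPM in 3A10t and at 3.33, 4.85 and 3.05 TPM in 1G12t (log2FC 0.91, SE 0.21, adjusted p = 0.045). Neither cyclin gene overlapped between the constructs. Smc4 was at 775, 896 and 886 TPM in 3A10t and at 660, 720 and 679 TPM in 1G12t (log2FC 0.31, SE 0.07, adjusted p = 0.045), a call that was lost with TPM as deposited and under quantile normalization. These adjusted p-values lay close to the threshold. The constructs did not overlap, 3A10t above, for 17 genes (30.4%, against 13.7% of genes tested) and, 3A10t below, for Cenpe, where 12.5% of genes tested lay below. At the study's threshold 10 genes were higher (17.9%, against 5.28%) and none lower, against 7.06%. With the sort as a block 6 were called higher (Ccna2, Ccnb1, Ccnb2, Cdca8, Spc25 and Smc4), when 2.31% of all genes were called higher and 4.25% lower. Without library 1 of 3A10t 12 were called, 11 higher and Incenp lower, when 11.7% of all genes were called higher and 15.9% lower. Leaving out library 2 or library 3 of 3A10t, any 1 library of 1G12t, or library 2 or 3 of EV no IL-2 or of EV+IL-2, left none. In those fits between 0.0672% and 0.306% of all genes were called higher, fewer than the 1.3% with all libraries.

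The 3A10t libraries remained far below EV+IL-2. Against EV+IL-2, which shares its libraries with the first comparison, 54 of the 56 genes were lower and Smc4 was higher, while 13.0% of genes tested were lower and 10.3% higher (limma). The median log2 fold change was −1.75. Birc5 had a mean of 12.6 ± 5.27 TPM in 3A10t and 82.1 ± 11.5 TPM in EV+IL-2 (log2FC −2.67, adjusted p = 2.0e-04), and Top2a 11.4 ± 0.861 and 61.6 ± 7.29 TPM (−2.33, adjusted p = 7.4e-07). Smc4 ran the other way, at 852 ± 66.9 TPM against 485 ± 3.89 TPM (log2FC 0.81, adjusted p = 5.5e-05), and Bub3 overlapped (log2FC 0.09, adjusted p = 0.54). The mean of 3A10t lay between EV+IL-2 and both EV no IL-2 and 1G12t for 38 of the 56 genes.

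Among the other pathway genes none rose and 6 fell in 3A10t against EV no IL-2: Ncapd3, Anapc1, Stag2, Esco1, Lin54 and Rbl2, named after their values were seen. The 6 are 5.31% of the 113 genes, where 0.452% of all genes tested rose and 1.60% fell. Rbl2, which encodes p130, the pocket protein of DREAM in resting cells, was at 79.3, 68.0 and 59.1 TPM in 3A10t and at 117, 136 and 139 TPM in EV no IL-2 (log2FC −0.92, SE 0.12, adjusted p = 0.0070, limma). Its level in EV+IL-2, 122 ± 3.00 TPM, and in 1G12t, 127 ± 12.3 TPM, lay near that of EV no IL-2. Stag2, a cohesin subunit gene, was at 16.8 ± 1.61 TPM in 3A10t and at 26.5 ± 0.658 TPM in EV no IL-2 (log2FC −0.63, adjusted p = 0.0070, limma). In 3A10t against 1G12t 1 gene of the 113 rose, Cdca5, which encodes sororin (0.885%, against 1.3% of all genes), and 6 fell (5.31%, against 2.96%).

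The positions of the genes limit a few values. The 56 genes lie on 17 chromosomes. A gene with a mean over 10 TPM overlaps 8 of them in the annotation (Ccna2, Cdca8, Cdc20, Kif4, Kif20a, Kif22, Prc1 and Ncapg), and since the sources used here do not state strand in counting, reads of the overlapping stretches cannot be told apart.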

How the data were processed

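RNA was sequenced from 12 Treg libraries, grouped and numbered by their labels. Per the labels and the study's methods the authors trimmed reads with Cutadapt 1.18, aligned them to mm10 with STAR 2.5.3, estimated expression with RSEM 1.3.0 and a GENCODE annotation, and tested with DESeq2 1.26. The file the authors deposited holds TPM for each library, which keep no read depth, so the depth is unknown and no counting error is given. The study's methods name spleens beside lymph nodes as the source of Tregs, while the labels name lymph nodes.

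TPM were divided by median-of-ratios factors. The 15043 genes whose mean TPM reached 1 were tested with limma 3.58.1 in R 4.3.3 (lmFit, and eBayes with its trend option) on log2(scaled TPM + 1), a scale that understates the change of low genes, with all 12 libraries in the fit and no block. Calls needed a Benjamini-Hochberg adjusted p under 0.05 over all genes. The fit was tested on simulated data. Comparisons with a group in common share its libraries. P-values measure the spread between 3 separately sorted and activated cultures of one pool of mice. Per the labels the replicate number marks a shared sort, which pairs the libraries. Deviations from group means of libraries with the same number had a mean correlation of 0.04 over 18 pairs (−0.11 to 0.15), against −0.02 over 36 pairs with different numbers. Positions and overlaps came from GENCODE M21 on GRCm38, in which 53569 symbols were found, and promoters from RefSeq. Figures were drawn with Python 3.11.15 and matplotlib 3.10.9.

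The members, roles and lists were chosen with earlier results of these data known. Genes described in full were, per role, the 2 with the highest mean, the largest and smallest change in EV+IL-2 and the largest absolute change in 3A10t, with Cdk1, Birc5, Psrc1 and every gene called between groups other than with EV+IL-2 or called lower in it. Of the other lists, the 2 largest and 2 smallest called changes were named. Alternatives were 2 pseudocounts, 2 filters, 2 scalings, the block, no trend, the study's threshold, only the 6 libraries compared and leaving out each library. A filter on the 9 libraries outside EV+IL-2 was added after seeing the data. No library or column was left out. One listed marker is not reported here.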

Additional observations from a re-analysis of the deposited data

How the results depend on the processing

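The 55 calls in EV+IL-2 against EV no IL-2 and the 55 in 3A10t against EV+IL-2 kept their number within 1.5 times except with a mean of at least 5 TPM, which left 36 of the 56 genes in the test and 35 called in each. Medians moved with the pseudocount, from 2.03 to 2.54 (0.1) and 1.17 (5) in the first and from −1.75 to −2.15 and −1.08 in the second, a scale effect of low levels. The median of 3A10t against 1G12t was 0.084 with TPM as deposited, where the median of all genes moved from −0.02 to −0.18. Summed TPM as deposited were 1349 in EV no IL-2 (1309 when scaled) and 1308 in 1G12t (1233). The counts near the threshold were not stable. In 3A10t against EV no IL-2 1 gene was called. Alternative counts follow, with the share of all genes called higher in brackets. The count was 3 with a pseudocount of 0.1 (0.439%) and 2 of 36 genes with a mean of at least 5 TPM (0.667%). It was 4 with the replicate block (0.605%) and 7 at the study's threshold (2.83%). It was 0 without a filter (0.291%), with TPM as deposited (0.352%) and with only the 6 libraries compared (0.0199%). Leaving out a library gave 0 to 9. In 3A10t against 1G12t 3 were called. There the count was 1 with a pseudocount of 5 (1.12%) and 7 of 36 genes with a mean of at least 5 TPM (4.97%). It was 6 with the replicate block (2.31%) and 10 at the study's threshold (5.28%). It was 0 without a filter (0.0976%), without a trend (0.326%) and with only the 6 libraries (0.0532%). Leaving out a library gave 0 to 12. For 1G12t the study's threshold gave 1 and leaving out a library gave 0 each time, and the median of 0.07 turned to −0.08 under quantile normalization and to −0.027 and −0.0051 without library 2 or 1 of 1G12t. The cause of these changes was not tested. The replicate block changed no other count by over 1.5 times. The small difference of Bub3 in EV+IL-2 turned to −0.050 with TPM as deposited, −0.073 with quantile normalization and was −0.025 to 0.053 when a library was left out, below 0 without library 3 of EV no IL-2 or library 1 of EV+IL-2, and in 3A10t against EV+IL-2 it was −0.035 to 0.20 when a library was left out, below 0 without library 2 of 3A10t. Of 994 values of single genes under an alternative, 918 kept their direction and their side of the threshold, 67 lost a call, 4 gained one and 5 turned. The call was lost for Top2a in 3A10t in 11 of 22 alternatives, and in 3A10t against 1G12t for Ccnb1 in 13, Ccnb2 in 15 and Smc4 in 16 of 22. Hjurp and Rbl1 in EV+IL-2 lost theirs in 6 and 4 of 23. TPM give no depth, and 3 libraries a group set the precision.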
